A study of Mus musculus with 22 samples.

Results

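Keap1 deletion was compared with intact Keap1 in 11 mouse tumours of the cheek lining without benzo[a]pyrene (BAP), out of 22 tumours in the series. The 11 libraries were chosen by their labels alone: 5 Keap1-deleted and 6 Keap1-wildtype tumours with no treatment listed. The deleted tumours carried Krt5CreER-T2/+, Trp53fl/fl, 2 copies of Rosa26LSL-PIK3CA(H1047R) and Keap1fl/fl, and the wildtype tumours carried the first 3 of these alleles without floxed Keap1. All therefore share loss of Trp53 and an activated human PIK3CA, switched on by a tamoxifen-inducible Cre that the Krt5 promoter drives in basal keratinocytes, so that other cells of the tumour keep Keap1. Tumours were started by injecting 4-hydroxytamoxifen into the oral buccal mucosa. The other 11 tumours have BAP, a carcinogen of tobacco smoke, as their listed treatment. They enter the choice of genes tested, the scaling, the shared estimate of spread and the principal components. They also enter the test of whether the Keap1 effect differed with BAP. The labels state neither sex nor age, nor if the tumours are from separate animals. The p-values therefore set group differences against the spread between samples within the fitted groups, BAP groups included, which need not be that between animals.

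KEAP1 is the adaptor of a ubiquitin ligase that marks the transcription factor NRF2, encoded by Nfe2l2, for degradation. When KEAP1 is lost or its cysteines are oxidised, NRF2 accumulates, pairs with small MAF proteins and binds antioxidant response elements in front of genes for glutathione synthesis, quinone reduction and NADPH supply. Mutations of this pair are known in squamous cancers of the head and neck and the lung. A tumour of the cheek also holds fibroblasts, macrophages, vessels and nearby muscle and fat, so in these bulk samples fewer cells of a type and less RNA per cell cannot be told apart.

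Total counts of the 11 libraries ranged from 29602879 to 39862777. Keap1 (ENSMUSG00000003308, chromosome 9, 21229730 to 21239361, minus strand) had 22.2, 30, 36.4, 32.2 and 23.5 CPM (counts relative to the library total, scaled by the trimmed mean of M values) in the Keap1-deleted libraries 1 to 5, against 45.8 (lowest), 55.7 (median) and 78.9 (highest) CPM in the 6 Keap1-wildtype libraries. The groups did not overlap, but the log2 fold change of -0.98 (SE 0.32, edgeR adjusted p = 0.137) did not pass the threshold of an adjusted p under 0.05. The counts are per gene and take in exons outside the floxed part. Nfe2l2 had 146, 162, 77.8, 107 and 201 CPM in deleted and 102 (lowest), 169 (median) and 307 (highest) CPM in wildtype tumours, and Trp53 and Pik3ca had log2 fold changes of 0.66 (SE 0.46, edgeR adjusted p = 0.457) and -0.05 (SE 0.17, edgeR adjusted p = 0.902). None of these 3 genes passed, and their ranges overlapped. The human transgene has no row of its own.

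The label of a squamous carcinoma was checked against 16 basal keratinocyte markers, of which none was at 0. Their summed level ran from 2626 to 31980 CPM in deleted and from 1612 to 54306 CPM in wildtype tumours. Keap1-wildtype 6 (title WT_T3342) stood apart from its group: its sum of 1612 CPM was the lowest of the 11 libraries, while the other 5 wildtype libraries held 21211 to 54306 CPM. On the first principal component of the 22 libraries, with 45.9% of the variance, it lay at 162, the other wildtype libraries lay between -141 and -15.1, and the deleted libraries lay between -28.6 and 129. Deleted 3 and 4, with basal sums of 2626 and 4996 CPM, lay at 129 and 116. Keap1-wildtype 6 was therefore kept in one fit and left out of another.

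**Figure D1:**
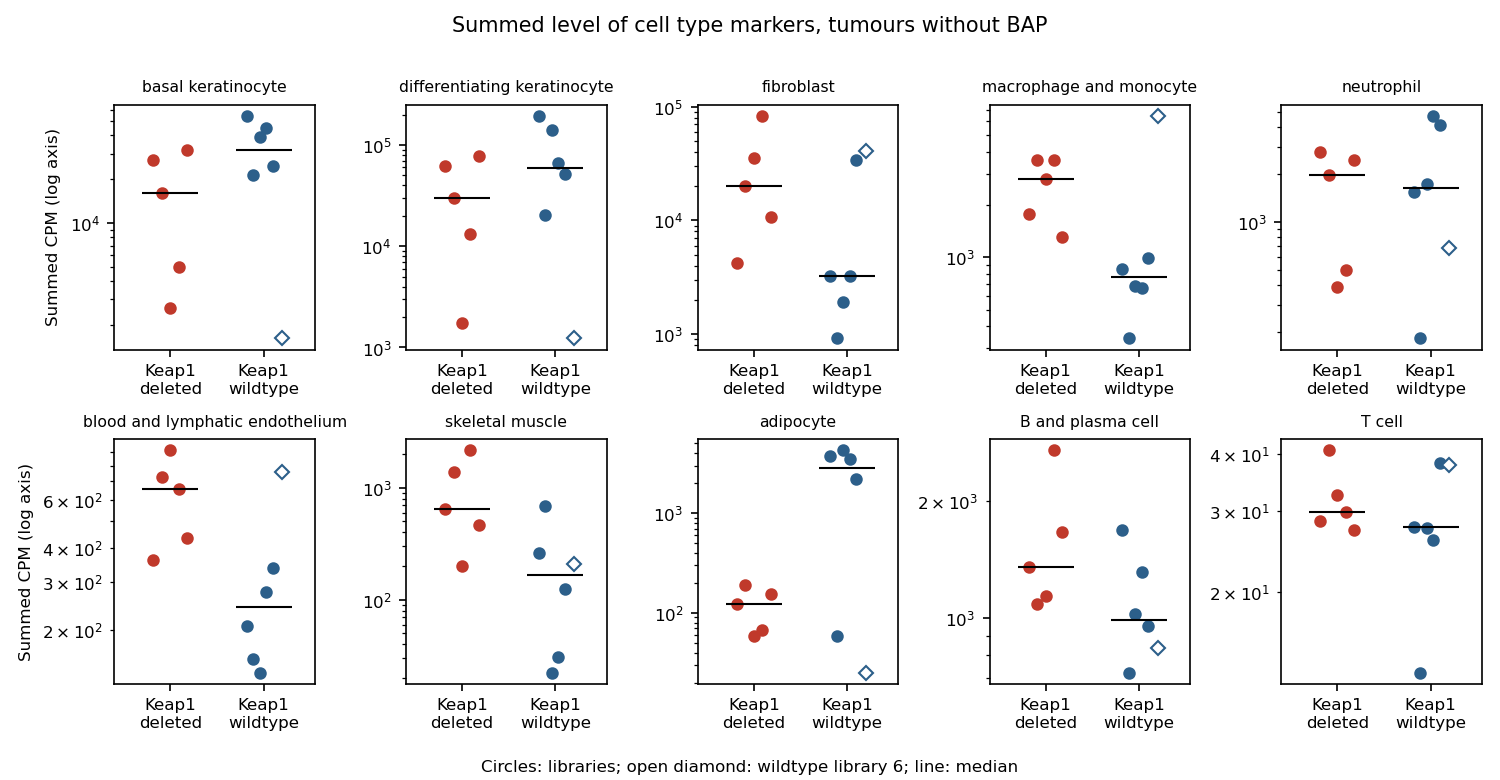
Summed CPM (log axis) of 10 lists of cell type markers in 5 Keap1-deleted (left) and 6 Keap1-wildtype (right) libraries, with the median as a line and Keap1-wildtype 6 as an open diamond. The basal keratinocyte sum of that library, 1612 CPM, lies under all others, and its macrophage sum, 6436 CPM, lies above all others.

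Markers of other cells varied among the libraries of both groups. The fibroblast sum over 16 markers ran from 4240 to 82965 CPM in deleted and from 910 to 40784 CPM in wildtype tumours, where libraries 5 and 6 held 34213 and 40784 CPM. The macrophage and monocyte sum over 17 markers ran from 1298 to 3615 CPM in deleted tumours and from 341 to 989 CPM in wildtype libraries 1 to 5. The endothelial sum over 14 markers was 362 to 910 CPM in deleted and 140 to 759 CPM in wildtype tumours. The skeletal muscle sum over 18 markers was 201 to 2160 CPM in deleted and 22.3 to 680 CPM in wildtype tumours, with Tnnc2 at 0 throughout. The T cell sum over 14 markers was 27.3 to 40.8 CPM in deleted and 13.3 to 38.3 CPM in wildtype tumours. The part of these cells in the gene results below was not tested, other than by the fits with a basal keratinocyte or muscle score as a covariate.

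With all libraries 41 genes rose and 15 fell in Keap1-deleted tumours among 19202 tested by edgeR's quasi-likelihood test, which is 0.292% of genes (0.214% higher and 0.0781% lower). An unadjusted p under 0.05 was reached by 3382 genes. The calls numbered 16 without Keap1-deleted 2, 17 without Keap1-wildtype 3 or 4, and at most 60 without any other untreated library except Keap1-wildtype 6, without which they numbered 2723 among the same genes. Leaving out 1 BAP library gave 27 to 63 calls. With library totals as the only scaling 59 genes rose and 8 fell. The 2 groups did not overlap in 50 of the 56 called genes, against 1.94% of all genes tested. Of the 41 that rose, 14 (0.0729% of genes) also passed in each of the 11 fits that left out 1 untreated library, and none of the 15 that fell did. All 56 were called without Keap1-wildtype 6 and in each of the 10 fits that left out a further untreated library. This is no independent check, since the 56 were chosen from the same libraries and calls rose to 2723 once wildtype 6 was left out. Leaving out Keap1-wildtype 6 changed the sign of none of their log2 fold changes and moved them by -0.23 to 0.95, over 1.5 times only for Cd300lb (2.76 with it and 3.71 without it) and Igha (5.96 with it and 6.72 without it). With only the 11 untreated libraries in the fit 0 genes passed, with 2379 at an unadjusted p under 0.05, while DESeq2 called 944 and limma-voom with sample weights called 1888.

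**Figure D2:**
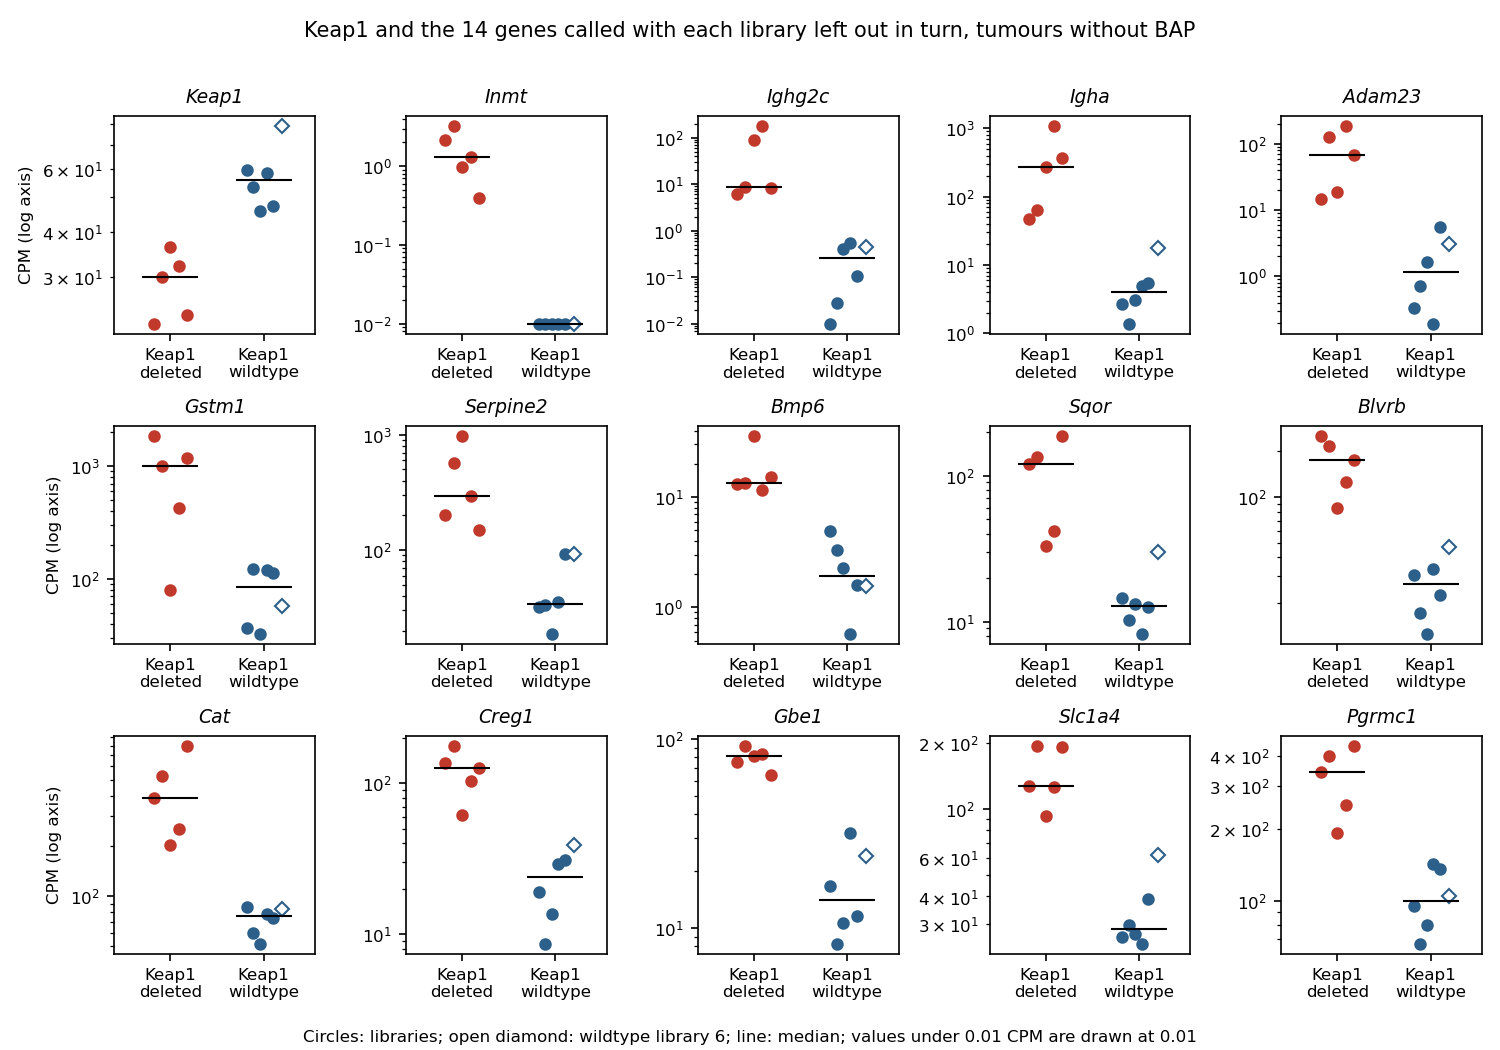
CPM (log axis) of Keap1 and the 14 genes that passed in all 11 fits leaving out a library, in 5 Keap1-deleted (left) and 6 Keap1-wildtype (right) libraries, with medians as lines and Keap1-wildtype 6 as an open diamond. The groups are separate in each panel except Gstm1, where deleted 3 at 80.2 CPM lies among the wildtype libraries.

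Among secreted factors, Serpine2 and Bmp6 passed with each library left out in turn. Serpine2 (ENSMUSG00000026249, chromosome 1, 79794197 to 79861180, minus strand) encodes protease nexin-1, an inhibitor of thrombin and plasminogen activators. It had 202, 567, 978, 292 and 148 CPM in deleted and 18.8 (lowest), 34.1 (median) and 92.9 (highest) CPM in wildtype tumours. Every deleted library lay above every wildtype one, and the log2 fold change was 3.11 (SE 0.51, edgeR adjusted p = 0.00756). Bmp6 (ENSMUSG00000039004, chromosome 13, 38345107 to 38500302, plus strand), a bone morphogenetic protein that signals through SMAD proteins and controls hepcidin in the liver, had 13, 13.4, 35.8, 11.5 and 15.1 CPM in deleted and 0.579 (lowest), 1.94 (median) and 4.93 (highest) CPM in wildtype tumours. Deleted 3 was far above the other 4 deleted libraries, which were close together, and the groups did not overlap (log2 fold change 2.90, SE 0.49, edgeR adjusted p = 0.00972). It was the 1 called member of 20 ligands of the TGF-beta and bone morphogenetic protein family with all libraries.

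Mmp12, macrophage metalloelastase, and Enpp2, which encodes autotaxin, the enzyme that makes lysophosphatidic acid, also rose. Mmp12 had 274, 224, 152, 165 and 155 CPM in deleted and 7.26 (lowest), 14.6 (median) and 32.2 (highest) CPM in wildtype tumours, with no overlap and a log2 fold change of 3.49 (SE 0.65, edgeR adjusted p = 0.0228). Mmp12 passed in 6 of the 11 fits that left out a library. Enpp2 had 16.7, 54.9, 29.8, 140 and 30.2 CPM in deleted and 1.75 (lowest), 7.59 (median) and 11.2 (highest) CPM in wildtype tumours, with deleted 4 the highest and no overlap (log2 fold change 2.97, SE 0.53, edgeR adjusted p = 0.0181, passing in 9 of 11 such fits). Sema3g, a class 3 semaphorin that is a guidance cue of vessels and axons, had a log2 fold change of 1.65 (SE 0.35, edgeR adjusted p = 0.0457). Ang, which encodes the secreted ribonuclease angiogenin, fell, with 17.3, 14.2, 6.54, 5.75 and 8.25 CPM in deleted and 20 (lowest), 23.9 (median) and 41.2 (highest) CPM in wildtype tumours. The highest deleted library lay under the lowest wildtype one (log2 fold change -1.33, SE 0.29, edgeR adjusted p = 0.0482). Of the 11 fits leaving out a library, Sema3g passed in 4 and Ang in 3.

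Immunoglobulin constant regions, which mark the secreted product of plasma cells, rose steeply. Igha (ENSMUSG00000095079, chromosome 12, 113254830 to 113260236, minus strand), the heavy chain of immunoglobulin A, had 46.9, 64.1, 271, 1087 and 373 CPM in deleted and 1.39 (lowest), 4.01 (median) and 18 (highest) CPM in wildtype tumours. Ighg2c (ENSMUSG00000076612, chromosome 12, 113285325 to 113288932, minus strand) had 6.11, 8.66, 87.9, 178 and 8.12 CPM in deleted and 0 (lowest), 0.256 (median) and 0.54 (highest) CPM in wildtype tumours. In both genes the lowest deleted library lay above the highest wildtype one, with deleted 4 the highest (log2 fold changes 5.96, SE 1.01, edgeR adjusted p = 0.00972 and 7.83, SE 1.14, edgeR adjusted p = 0.00424). These 2 were the called members of 11 tested with all libraries, and the median of the 11 was 5.54, against -0.05 over all genes. Without Keap1-wildtype 6 the light chain Igkc (7.71, adjusted p = 0.00491 by edgeR) and the joining chain Jchain (6.43, adjusted p = 0.00996) were called too, and 7 of the 11 rose. Constant regions are near-identical in part, so reads may be split among them. The summed B and plasma cell markers ran from 1088 to 2711 CPM in deleted and from 722 to 1682 CPM in wildtype tumours, and their part was not tested. That sum takes in Igha, Igkc and Jchain themselves, and also genes such as Xbp1 and Sdc1. In wildtype 1 it was 1682 CPM, of which Igha gave 2.68 and Igkc 1.07 CPM. The overlap of the sums therefore does not show that plasma cells were alike in the groups.

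Surface proteins and receptors came next. Adam23 (ENSMUSG00000025964, chromosome 1, 63445891 to 63596276, plus strand), a disintegrin without protease activity that binds integrins and LGI proteins, had 14.6, 128, 18.8, 188 and 69.1 CPM in deleted and 0.193 (lowest), 1.18 (median) and 5.61 (highest) CPM in wildtype tumours. The groups did not overlap, and the log2 fold change was 5.42 (SE 0.82, edgeR adjusted p = 0.00424). Nrxn2, a presynaptic neurexin, had 12.8, 17.3, 1.47, 1.92 and 12.3 CPM in deleted and 0 (lowest), 0.271 (median) and 0.67 (highest) CPM in wildtype tumours (log2 fold change 4.84, SE 1.04, edgeR adjusted p = 0.0482), passing in 2 of the 11 fits that left out a library. Ednrb, the endothelin receptor type B, had a log2 fold change of 2.30 (SE 0.48, edgeR adjusted p = 0.0457). Marco, a scavenger receptor of macrophages, had 0.124, 1.21, 0.155, 0.629 and 1.01 CPM in deleted tumours and 0 counts in all 6 wildtype libraries, a difference of at least 42.3-fold against a floor of 3 counts over the wildtype group. Cd300lb, an activating receptor of myeloid cells, had a log2 fold change of 2.76 (SE 0.59, edgeR adjusted p = 0.0482), and Tmem132b, a transmembrane protein, one of 6.88 (SE 1.48, edgeR adjusted p = 0.0482). Of the fits leaving out a library, Ednrb passed in 3, Marco in 2 and Cd300lb and Tmem132b in 1 each. Fyn, a kinase of the Src family that acts below such receptors, had 55.7, 61.2, 62.6, 53.6 and 70.4 CPM in deleted and 20.7 (lowest), 26.7 (median) and 36.7 (highest) CPM in wildtype tumours, a small difference without overlap (log2 fold change 1.12, SE 0.22, edgeR adjusted p = 0.03). Fyn passed in 4 of the 11 fits that left out a library.

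Most of the other genes that passed with each library left out were enzymes or carriers. Sqor (ENSMUSG00000005803, chromosome 2, 122765237 to 122809569, plus strand), the mitochondrial enzyme that oxidises hydrogen sulfide, had 120, 135, 32.9, 41.9 and 187 CPM in deleted and 8.26 (lowest), 12.9 (median) and 30.1 (highest) CPM in wildtype tumours. Cat (ENSMUSG00000027187, chromosome 2, 103453849 to 103485160, minus strand), catalase, which breaks down hydrogen peroxide in peroxisomes, had 387, 522, 202, 253 and 796 CPM in deleted and 51.7 (lowest), 75.7 (median) and 86.1 (highest) CPM in wildtype tumours. Blvrb (ENSMUSG00000040466, chromosome 7, 27447978 to 27466144, plus strand), a biliverdin and flavin reductase, had 253, 218, 85.1, 125 and 175 CPM in deleted and 12.6 (lowest), 26.6 (median) and 46.9 (highest) CPM in wildtype tumours. In all 3 genes the groups were apart and deleted 3 was the lowest deleted library, with log2 fold changes of 2.80 (SE 0.41, edgeR adjusted p = 0.00424), 2.58 (SE 0.42, edgeR adjusted p = 0.00756) and 2.65 (SE 0.40, edgeR adjusted p = 0.00424).

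Gbe1 (ENSMUSG00000022707, chromosome 16, 70313949 to 70569716, plus strand), the glycogen branching enzyme, had 75.5, 92, 81.7, 83.8 and 64.8 CPM in deleted and 8.27 (lowest), 14.2 (median) and 31.7 (highest) CPM in wildtype tumours. The deleted libraries lay within a narrow range above all wildtype ones (log2 fold change 2.21, SE 0.36, edgeR adjusted p = 0.00756). Slc1a4 (ENSMUSG00000020142, chromosome 11, 20302180 to 20332713, minus strand), a carrier of alanine, serine and cysteine, had 127, 194, 93.3, 126 and 192 CPM in deleted and 24.4 (lowest), 28.4 (median) and 61.9 (highest) CPM in wildtype tumours (log2 fold change 2.08, SE 0.30, edgeR adjusted p = 0.00424). Keap1-wildtype 6 was the highest wildtype library, yet under the lowest deleted one. Pgrmc1 (ENSMUSG00000006373, chromosome X, 36598206 to 36606079, plus strand), a haem-binding membrane protein that assists cytochromes P450, had 343, 402, 192, 251 and 442 CPM in deleted and 66.7 (lowest), 100 (median) and 143 (highest) CPM in wildtype tumours (log2 fold change 1.64, SE 0.24, edgeR adjusted p = 0.00424).

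Creg1 (ENSMUSG00000040713, chromosome 1, 165763746 to 165775308, plus strand), a glycoprotein of the endosome and lysosome, had 137, 177, 61.9, 104 and 126 CPM in deleted and 8.66 (lowest), 24 (median) and 38.8 (highest) CPM in wildtype tumours (log2 fold change 2.37, SE 0.37, edgeR adjusted p = 0.00557). Inmt (ENSMUSG00000003477, chromosome 6, 55170626 to 55175043, minus strand), an N-methyltransferase of indoles that also methylates selenium and sulfur compounds, had 2.17, 3.24, 0.982, 1.32 and 0.388 CPM in deleted tumours and 0 counts in every wildtype library. That is at least 110-fold higher against the floor of 3 counts over the wildtype group. Gstm1 (ENSMUSG00000058135, chromosome 3, 108012255 to 108017973, minus strand), a glutathione transferase with close relatives that may share reads, had 1855, 1009, 80.2, 430 and 1184 CPM in deleted and 32.8 (lowest), 85.5 (median) and 123 (highest) CPM in wildtype tumours (log2 fold change 3.50, SE 0.57, edgeR adjusted p = 0.00756). Here deleted 3 lay inside the wildtype range.

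Further enzymes and carriers passed with all libraries but not in every fit that left one out. Gldc, glycine decarboxylase of the mitochondrial glycine cleavage system, had a log2 fold change of 3.99 (SE 0.85, edgeR adjusted p = 0.0477), and Pcx, pyruvate carboxylase, which feeds oxaloacetate to the citric acid cycle, had one of 1.63 (SE 0.35, edgeR adjusted p = 0.0482). Slc40a1, ferroportin, which exports iron from cells, had 26.5, 32.1, 12, 30.8 and 39.3 CPM in deleted and 3.03 (lowest), 5.71 (median) and 10.6 (highest) CPM in wildtype tumours without overlap (log2 fold change 2.11, SE 0.42, edgeR adjusted p = 0.0399). Rnf128, a ubiquitin ligase of the endosome, had a log2 fold change of 2.53 (SE 0.46, edgeR adjusted p = 0.0202), and Myl4, an atrial and embryonic myosin light chain, had one of 2.82 (SE 0.51, edgeR adjusted p = 0.0195). With a library left out, Rnf128 and Myl4 passed in 7 of 11 fits, Gldc and Slc40a1 in 3 and Pcx in 1. Of 44 known NRF2 targets, a list chosen with earlier results of these data known, 6 rose with all libraries and 23 rose without Keap1-wildtype 6, with none lower in either fit. Among them Pir, a nuclear iron-binding protein, had a log2 fold change of 1.43 (SE 0.30, edgeR adjusted p = 0.0457), and Gss, glutathione synthetase, had one of 1.60 (SE 0.34, edgeR adjusted p = 0.0482). With a library left out, Pir passed in 4 fits and Gss in 3. The ranges of Gss overlapped, with 56.1 CPM in deleted 3 and 44.9 to 66.3 CPM in wildtype tumours.

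The 15 genes that fell included several of chromosome segregation and recombination. Cenpa, the histone variant of centromeres, had 38, 33.3, 39.2, 33.7 and 46.9 CPM in deleted and 53.4 (lowest), 66.7 (median) and 118 (highest) CPM in wildtype tumours without overlap (log2 fold change -0.98, SE 0.20, edgeR adjusted p = 0.0418). Tacc3, a protein of the mitotic spindle, had 42.2, 35.3, 34.8, 38.4 and 55.3 CPM in deleted and 53.6 (lowest), 75.7 (median) and 134 (highest) CPM in wildtype tumours (log2 fold change -1.05, SE 0.20, edgeR adjusted p = 0.034). Only deleted 5 reached the wildtype range of Tacc3. Brca2, which acts in the repair of broken DNA by homologous recombination, fell by 1.39 on the log2 scale (SE 0.29, edgeR adjusted p = 0.0424), and Mnd1, which assists strand exchange in meiosis, fell by 1.49 (SE 0.31, edgeR adjusted p = 0.0457). They were the 2 called of 32 homologous recombination and Fanconi genes, whose median was -0.30. Of 26 cell cycle and replication genes none passed with all libraries, with a median of -0.26, and 2 fell without Keap1-wildtype 6.

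The other genes that fell had varied roles. Hnrnpdl, an RNA-binding protein, had 125, 109, 86.1, 99.2 and 122 CPM in deleted and 132 (lowest), 223 (median) and 316 (highest) CPM in wildtype tumours without overlap (log2 fold change -1.05, SE 0.21, edgeR adjusted p = 0.0405). Zfas1, a noncoding host of small nucleolar RNAs, had a log2 fold change of -1.51 (SE 0.32, edgeR adjusted p = 0.0457), and Mrgbp, a subunit of the TIP60 histone acetyltransferase complex, had one of -1.29 (SE 0.26, edgeR adjusted p = 0.0405). The mitochondrial cysteine tRNA mt-Tc (ENSMUSG00000064349, chromosome M, 5192 to 5257, minus strand) had 3.88, 3.65, 2.4, 3.99 and 4.63 CPM in deleted and 4.53 (lowest), 20.7 (median) and 76.2 (highest) CPM in wildtype tumours. Its log2 fold change was -3.02 (SE 0.61, edgeR adjusted p = 0.0405), and the ranges overlapped because Keap1-wildtype 6 held 4.53 CPM. Thyn1, a nuclear protein, had 12.8, 14.7, 20, 19.9 and 13.6 CPM in deleted and 28.3 (lowest), 33.7 (median) and 37.4 (highest) CPM in wildtype tumours and passed in 10 of the 11 fits that left out a library (log2 fold change -1.03, SE 0.17, edgeR adjusted p = 0.00756). Miip (-1.40), an inhibitor of cell migration, Slc29a2 (-1.11), a nucleoside carrier, Dgcr6 (-1.10) and Trappc5 (-0.75), a subunit of a vesicle tethering complex, also fell, with edgeR adjusted p of 0.0211, 0.0482, 0.0405 and 0.0477. Apart from Thyn1, the named genes that fell with all libraries passed in 2 to 5 of the 11 fits that left out a library.

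The core antioxidant response element, written TGACNNNGC, was searched on both strands in the 250 bases in front of the start of each gene, as listed by RefSeq on GRCm38.p6. It was found for 6 of the 34 called higher genes with a listed promoter (17.6%), 3 of the 14 called lower ones (21.4%) and 13.9% of 12866 genes tested, so its share among called genes was near that of all genes. Among genes that held without Keap1-wildtype 6, 14.1% of 526 higher and 12.1% of 207 lower ones had it. The stretches below show where it lies in all 6 called higher genes, 5′ to 3′ in the direction of the gene, with the element in capitals. It is on the strand of the gene in Bmp6, Cd300lb and Pgrmc1 and on the opposite strand in Pir, Sema3g and Txnrd1, where its reverse complement is in capitals. A match is a description of these letters, and binding of NRF2 was not measured.
Bmp6, chr13:38345563-38345661, plus strand: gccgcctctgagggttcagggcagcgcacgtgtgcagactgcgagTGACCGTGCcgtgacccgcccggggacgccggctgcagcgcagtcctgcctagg
Sema3g, chr14:31217623-31217718, plus strand: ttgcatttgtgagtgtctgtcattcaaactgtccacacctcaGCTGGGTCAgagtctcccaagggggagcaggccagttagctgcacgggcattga
Cd300lb, chr11:114934414-114934512, minus strand: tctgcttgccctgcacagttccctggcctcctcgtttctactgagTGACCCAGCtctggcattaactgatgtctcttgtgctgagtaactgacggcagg
Pgrmc1, chrX:36597956-36598054, plus strand: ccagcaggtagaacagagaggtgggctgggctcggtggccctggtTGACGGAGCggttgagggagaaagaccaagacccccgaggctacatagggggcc
Pir, chrX:164269181-164269270, plus strand: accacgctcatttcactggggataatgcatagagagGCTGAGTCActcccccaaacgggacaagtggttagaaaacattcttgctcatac
Txnrd1, chr10:82859069-82859167, plus strand, 1 of 3 listed starts: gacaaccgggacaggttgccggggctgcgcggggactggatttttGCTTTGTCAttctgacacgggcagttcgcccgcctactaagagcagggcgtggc
Txnrd1, thioredoxin reductase, had 259, 367, 359, 233 and 291 CPM in deleted and 33.3 (lowest), 67.1 (median) and 205 (highest) CPM in wildtype tumours, with Keap1-wildtype 6 the highest of its group (log2 fold change 1.87, SE 0.35, edgeR adjusted p = 0.0238 with it and 2.37 without it).

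Without Keap1-wildtype 6 the picture was much wider. Of 18984 genes tested 1641 rose and 1090 fell, which is 14.4% (8.64% higher and 5.74% lower), and 715 of the higher (3.77% of genes) and 300 of the lower ones (1.58%) passed in each of the 10 fits that left out a further untreated library. The groups did not overlap for 8.26% of genes. Keap1-wildtype 6, which took no part in this choice, reached the range of the deleted libraries in 1443 of the 1641 higher genes (87.9%) and in 906 of the 1090 lower genes (83.1%). Among the wildtype libraries in the fit, the highest shares were 46.7% of the higher genes, in wildtype 5, and 27.2% of the lower genes, in wildtype 1. Those libraries took part in the choice of genes, which by itself lowers their shares, so the gap to wildtype 6 is no test. The share over all genes was not computed. The genes described from here on were called only without Keap1-wildtype 6, unless stated. They show how the deleted tumours stood against the other 5 wildtype tumours, and the value of wildtype 6 is given beside many of them. Where its value is not given, wildtype 6 could also lie beyond the deleted range, as for Tnfrsf1b, Tgfbr2, Tnfsf11 and Abcb9. With that library kept, 6 of the lists had medians nearer to 0: 0.84 for complement, 0.64 for cathepsins, 1.12 for matrix glycoproteins, 0.80 for C-type lectin and scavenger receptors, 0.73 for Toll-like receptors and -0.66 for ribosomal proteins, with 1 call among these 6 lists (Marco). The medians of other lists changed sign, such as that of Wnt ligands, which was 0.33 with that library and -0.03 without it. The calls numbered 661 with only the untreated libraries in the fit. A covariate for the basal keratinocyte markers (called the basal score below) gave 944 calls, 575 higher and 369 lower. One for skeletal muscle markers (the muscle score) gave 664, 466 higher and 198 lower. Counts of list members with these scores, given below, stand beside this loss of calls over all genes. The calls numbered 1273 without Keap1-deleted 4 as well, 1363 without deleted 3, 1686 without deleted 2, 1300 without wildtype 3 and 1611 without wildtype 4. With library totals as the only scaling the median of all genes moved to 0.10 on the log2 scale, against -0.04, 1880 genes rose and 588 fell, and no list median named below changed its sign relative to that of all genes.

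**Figure D3:**
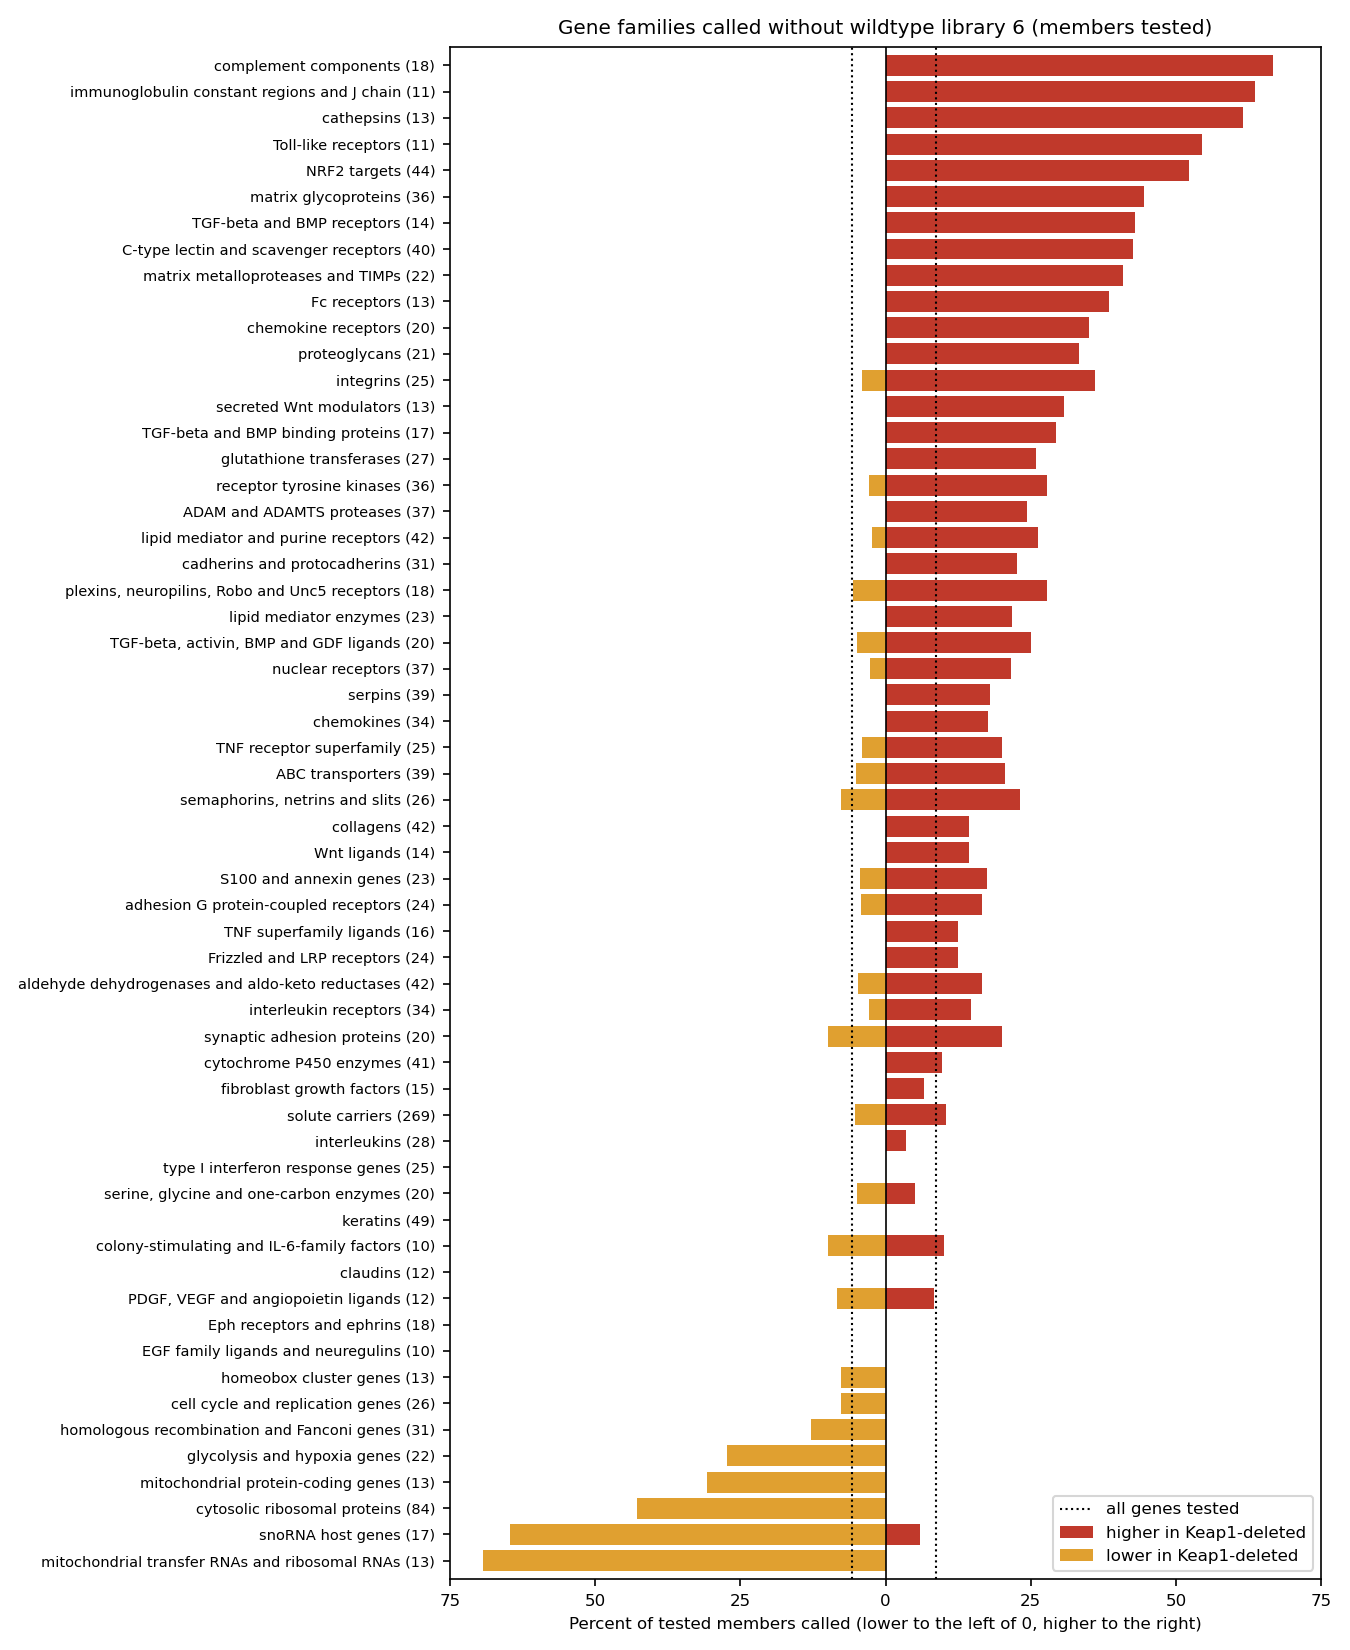
Percent of the tested members of each gene family that were called higher (right of 0) or lower (left of 0) in 5 Keap1-deleted against 5 Keap1-wildtype libraries, leaving out Keap1-wildtype 6, with the number tested in brackets and dotted lines at the 8.64% and 5.74% of all genes. Complement components, immunoglobulin constant regions and cathepsins lie farthest to the right, and mitochondrial RNAs, snoRNA hosts and ribosomal proteins farthest to the left.

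Complement, the cascade of plasma proteins that tags cells and debris, rose as a family: 12 of 18 tested components rose and none fell, with a median of 2.04, and 6 held in all 10 further fits. C1qb, a chain of the first component made by macrophages, had 93.1, 168, 207, 276 and 73.4 CPM in deleted tumours and 17.3 (lowest), 28.9 (median) and 89.5 (highest) CPM in wildtype 1 to 5, with some overlap and with 749 CPM in wildtype 6. C1qb thus had a log2 fold change of 1.92 (SE 0.46, edgeR adjusted p = 0.0117). Masp1, a protease of the lectin pathway, had a log2 fold change of 3.38 (SE 0.82, edgeR adjusted p = 0.013), and Serping1, which inhibits C1 proteases, had one of 2.39 (SE 0.60, edgeR adjusted p = 0.0142). Masp1 in wildtype 6, at 300 CPM, lay above every deleted library, the highest of which had 137 CPM. Serping1 in wildtype 6, at 89.3 CPM, lay among the deleted libraries, whose lowest held 80.9 CPM. Cfd, the factor D protease, had 0.341, 17.2, 1.68, 3.72 and 0.0517 CPM in deleted tumours and 0 counts in all 6 wildtype libraries, at least 312-fold higher on average, with deleted 2 holding most of it. Of the components 3 rose with the basal score as a covariate and 1 with the muscle score, where 575 and 466 of all 18984 genes rose.

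Some secreted and lysosomal proteases rose, as did some inhibitors. Of 13 cathepsins, the acid proteases of lysosomes, 8 rose and none fell (median 1.25, 4 held in all 10 further fits). Ctsl had 1015, 1221, 649, 885 and 533 CPM in deleted tumours, 139 (lowest), 176 (median) and 326 (highest) CPM in wildtype 1 to 5 and 735 CPM in wildtype 6, so that only wildtype 6 reached the deleted range (log2 fold change 2.00, SE 0.32, edgeR adjusted p = 0.00159). Ctsk, a collagen-degrading cathepsin of osteoclasts and fibroblasts, had a log2 fold change of 3.27 (SE 0.70, edgeR adjusted p = 0.00743), and wildtype 6 held 2046 CPM, above every deleted library, the highest of which had 772 CPM. Of 22 matrix metalloproteases and their tissue inhibitors 9 rose and none fell (median 1.86). Mmp2, gelatinase A, had 149, 432, 742, 2098 and 169 CPM in deleted tumours, 10.2 (lowest), 24.2 (median) and 136 (highest) CPM in wildtype 1 to 5 and 727 CPM in wildtype 6. The deleted and the 5 wildtype libraries did not overlap (log2 fold change 3.88, SE 0.76, edgeR adjusted p = 0.00458), although wildtype 5 at 136 CPM came near deleted 1 at 149 CPM. Mmp19 had a log2 fold change of 3.60 (SE 0.75, edgeR adjusted p = 0.00644) and Timp1, an inhibitor of these enzymes, one of 3.33 (SE 0.74, edgeR adjusted p = 0.00855). Wildtype 6 held 550 CPM of Timp1, above the highest deleted library at 434 CPM, and its 58 CPM of Mmp19 lay inside the deleted range. Of 39 serpins 7 rose and none fell, and of 37 ADAM and ADAMTS proteases 9 did. With Keap1-wildtype 6 kept, none of the cathepsins and 1 member of each of the other 3 lists rose. With the basal score as a covariate 4 cathepsins and 4 of the metalloprotease list rose, and with the muscle score 3 and 4 did.

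Matrix genes followed. Of 36 matrix glycoproteins 16 rose and none fell (median 2.13), as did 7 of 21 proteoglycans (median 1.53) and 6 of 42 collagens (median 1.14). Spp1, osteopontin, which is made by macrophages and tumour cells, had 1014, 681, 2834, 884 and 106 CPM in deleted tumours, 8.36 (lowest), 34.3 (median) and 68.7 (highest) CPM in wildtype 1 to 5 and 591 CPM in wildtype 6. Even deleted 5, by far the lowest deleted library, lay above the 5 wildtype ones (log2 fold change 4.91, SE 0.88, edgeR adjusted p = 0.0027). Bgn, the proteoglycan biglycan, had a log2 fold change of 4.03 (SE 0.75, edgeR adjusted p = 0.00354), Loxl2, which crosslinks collagen, one of 3.15 (SE 0.69, edgeR adjusted p = 0.00849), and Col4a1, of basement membranes, one of 2.20 (SE 0.48, edgeR adjusted p = 0.00785). Wildtype 6 held 4393 CPM of Bgn, 123 CPM of Loxl2 and 1020 CPM of Col4a1, and the deleted libraries ran from 503 to 6351, 26 to 460 and 284 to 1856 CPM. The fibroblast sums given above were also high in wildtype 5 and 6, and their part was not tested. The basal score as a covariate left 2 matrix glycoproteins, 1 proteoglycan and 2 collagens higher.

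Of 34 chemokines 6 rose and none fell (median 1.27), and of 28 interleukins 1 did. Pf4, platelet factor 4, also made by macrophages, had 11.9, 32.7, 17.5, 27.3 and 7.58 CPM in deleted tumours, 1.14 (lowest), 1.51 (median) and 2.6 (highest) CPM in wildtype 1 to 5 and 37 CPM in wildtype 6. The groups were apart without wildtype 6, which lay above all deleted libraries (log2 fold change 3.59, SE 0.57, edgeR adjusted p = 0.00159). Ccl9, a macrophage chemokine, had a log2 fold change of 2.90 (SE 0.73, edgeR adjusted p = 0.0145), with 262 CPM in wildtype 6 and 13.1 to 93.4 CPM in deleted tumours. Csf1, the growth factor of macrophages, had 23.9, 78.3, 126, 89.3 and 35.5 CPM in deleted tumours, 12.2 (lowest), 25.9 (median) and 34.9 (highest) CPM in wildtype 1 to 5 and 230 CPM in wildtype 6. For Csf1 the log2 fold change was 1.53 (SE 0.40, edgeR adjusted p = 0.0178), passing in 9 of the 10 further fits. Deleted 1 at 23.9 CPM lay among the wildtype libraries. Tnfsf11, the osteoclast factor RANKL, had a log2 fold change of 3.96 (SE 1.14, edgeR adjusted p = 0.0263), passing in 7 of the 10 further fits. Tslp, an epithelial cytokine of type 2 immunity, fell, with 0.993, 0.295, 0.336, 0.15 and 0.181 CPM in deleted tumours and 0.777 (lowest), 2.55 (median) and 10.8 (highest) CPM in wildtype 1 to 5 (log2 fold change -3.63, SE 0.86, edgeR adjusted p = 0.0113). Of the chemokines 2 rose with the basal score as a covariate, and 1 with the muscle score.

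Among growth factors the families split. Of 20 TGF-beta family ligands 5 rose, Bmp6 among them, and 1 fell (median 1.29), and 5 of 17 of their binding proteins rose. Tgfb1 had 62.7, 121, 106, 142 and 82.3 CPM in deleted tumours, 23.5 (lowest), 44.3 (median) and 66.8 (highest) CPM in wildtype 1 to 5 and 138 CPM in wildtype 6. Tgfb1 thus had a log2 fold change of 1.27 (SE 0.29, edgeR adjusted p = 0.00996). Chrdl1, a secreted antagonist of bone morphogenetic proteins, had a log2 fold change of 6.57 (SE 1.49, edgeR adjusted p = 0.00955), with most of its reads in deleted 3 at 290 CPM. Fgf7, keratinocyte growth factor, was the 1 fibroblast growth factor of 15 that rose, at 17.4, 37.3, 88.3, 17 and 5.17 CPM in deleted tumours, 0 (lowest), 1.43 (median) and 2.45 (highest) CPM in wildtype 1 to 5 and 15.7 CPM in wildtype 6. For Fgf7 the log2 fold change was 4.76 (SE 1.11, edgeR adjusted p = 0.0105). Vegfa, the main growth factor of vessels, fell: it had 80.6, 88.7, 104, 80.9 and 124 CPM in deleted tumours, 110 (lowest), 249 (median) and 476 (highest) CPM in wildtype 1 to 5 and 65.1 CPM in wildtype 6. Of the 5 wildtype libraries only wildtype 5, at 110 CPM, reached the deleted range (log2 fold change -1.62, SE 0.41, edgeR adjusted p = 0.0148).

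Of 8 insulin-like growth factors and binding proteins 3 rose, among them Igfbp4 (2.60, SE 0.65, edgeR adjusted p = 0.0139). None of 10 EGF family ligands was called, with a median of -0.27. Of 14 Wnt ligands 2 rose with a median of -0.03, near that of all genes, and of 13 secreted Wnt modulators 4 rose (median 3.12). Notum, a secreted esterase that strips the lipid of Wnt proteins, had 0.403, 4.83, 38.7, 2.37 and 3 CPM in deleted tumours, 0 (lowest), 0.0386 (median) and 0.335 (highest) CPM in wildtype 1 to 5 and 22.3 CPM in wildtype 6. Notum thus had a log2 fold change of 6.12 (SE 1.38, edgeR adjusted p = 0.00918). Deleted 1 at 0.403 CPM was barely above the highest of the 5 wildtype libraries. Of 26 semaphorins, netrins and slits 6 rose and 2 fell. Ntn1, netrin-1, had 37.4, 74.3, 150, 71.4 and 23.4 CPM in deleted tumours, 0.787 (lowest), 1.7 (median) and 11.9 (highest) CPM in wildtype 1 to 5 and 216 CPM in wildtype 6, the highest of all 11 libraries (log2 fold change 3.81, SE 0.71, edgeR adjusted p = 0.00359). Sema4c had 33.7, 36.8, 32.7, 32.6 and 44.5 CPM in deleted tumours and 54.8 (lowest), 87.3 (median) and 97 (highest) CPM in wildtype 1 to 5, with wildtype 6 at 37.6 CPM inside the deleted range (log2 fold change -1.15, SE 0.24, edgeR adjusted p = 0.00613), and Slit1, the ligand of Robo receptors, had a log2 fold change of -2.75 (SE 0.62, edgeR adjusted p = 0.009).

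**Figure D4:**
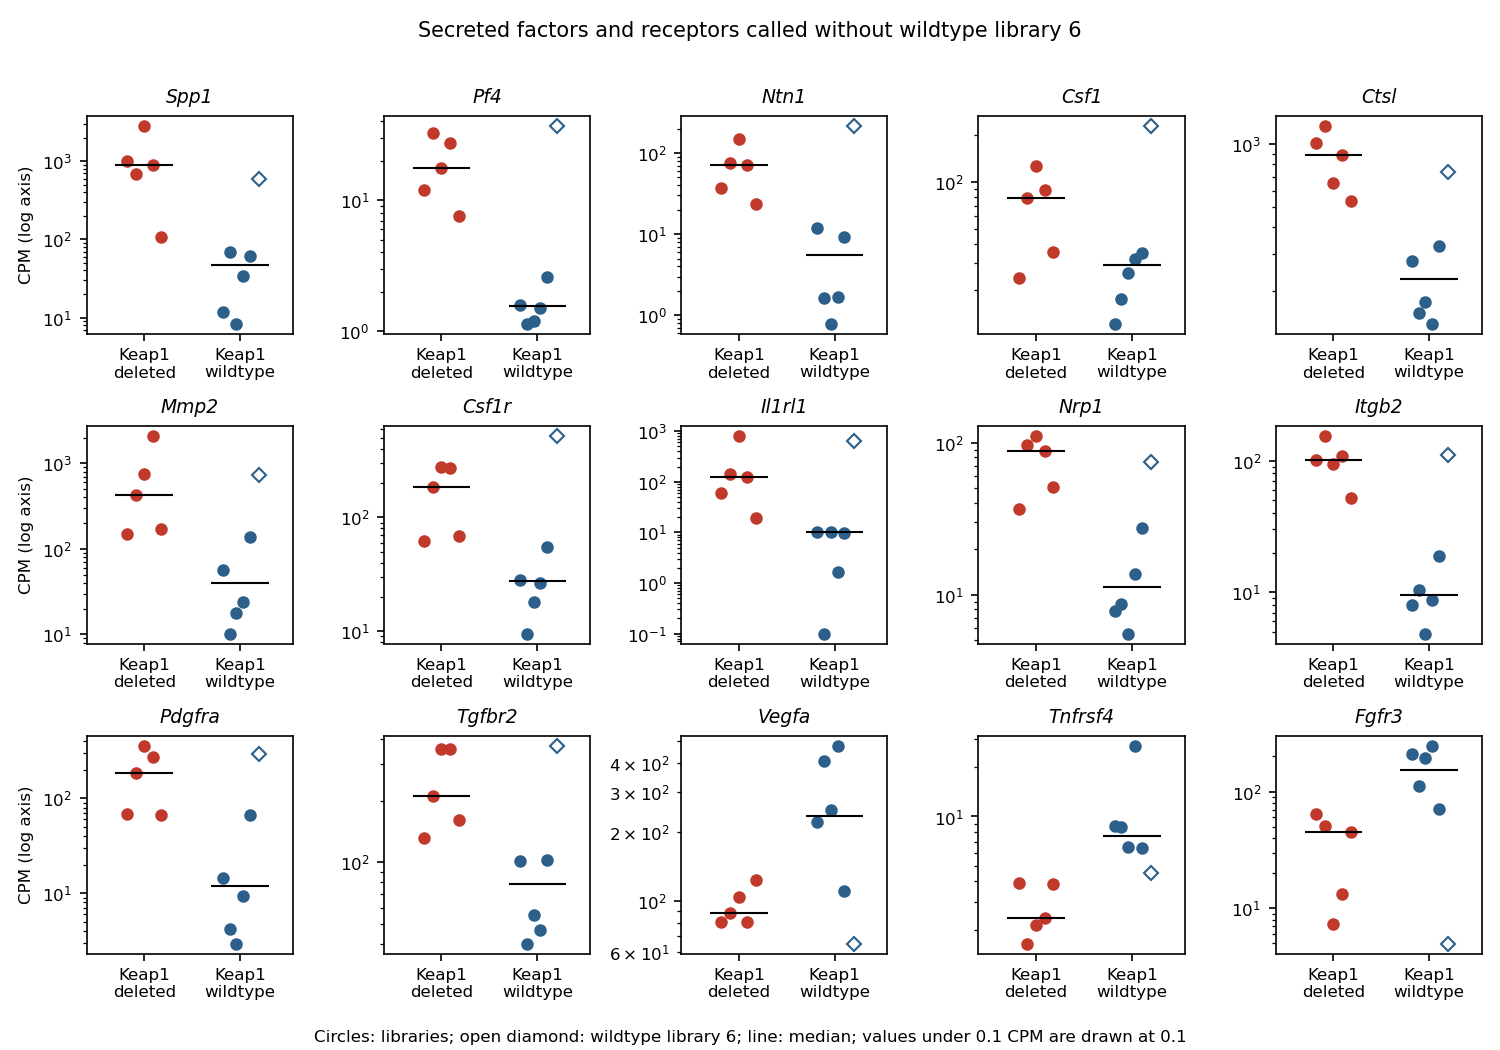
CPM (log axis) of 15 secreted factors and receptors called without Keap1-wildtype 6, in 5 Keap1-deleted (left) and 6 Keap1-wildtype (right) libraries, with medians as lines over all libraries of a group and Keap1-wildtype 6 as an open diamond. That library lies within or beyond the deleted range in all panels except Tnfrsf4, where its 4.48 CPM lies between the groups.

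Receptors of innate immunity rose in number. Of 40 C-type lectin and scavenger receptors 17 rose and none fell (median 1.81, 13 held in all 10 further fits), as did 6 of 11 Toll-like receptors (median 2.05) and 5 of 13 Fc receptors, all 5 of which held. Clec4d, a myeloid C-type lectin, had 45.3, 104, 41.8, 41.1 and 29.5 CPM in deleted tumours, 1.05 (lowest), 4.5 (median) and 8.6 (highest) CPM in wildtype 1 to 5 and 38.8 CPM in wildtype 6. For Clec4d the log2 fold change was 3.38 (SE 0.51, edgeR adjusted p = 0.00152). Tlr13, a mouse sensor of bacterial ribosomal RNA, had 26.2, 60.7, 37.1, 37.6 and 15.8 CPM in deleted tumours, 1.08 (lowest), 2.95 (median) and 10.3 (highest) CPM in wildtype 1 to 5 and 53.7 CPM in wildtype 6. Tlr13 thus had a log2 fold change of 3.05 (SE 0.47, edgeR adjusted p = 0.00152). In both the 5 deleted libraries lay above wildtype 1 to 5, and wildtype 6 lay inside the deleted range. Msr1, a scavenger receptor of macrophages, had a log2 fold change of 2.93 (SE 0.52, edgeR adjusted p = 0.00243), Fcgr3, a low-affinity receptor of immunoglobulin G, one of 2.51 (SE 0.47, edgeR adjusted p = 0.00359), and Scara5, a ferritin receptor of fibroblasts, one of 6.71 (SE 1.23, edgeR adjusted p = 0.00341). The macrophage markers Lyz2 (3.67, SE 0.63, edgeR adjusted p = 0.00209) and Trem2 (3.83, SE 0.57, edgeR adjusted p = 0.0015) moved likewise, 12 of 17 markers of that cell type rose, and their part in the receptor counts was not tested. Wildtype 6 held 104 CPM of Msr1, 159 CPM of Fcgr3 and 2015 CPM of Lyz2, above the highest deleted libraries at 44.8, 113 and 1887 CPM. Its 33.9 CPM of Scara5 and 115 CPM of Trem2 lay inside the deleted ranges. With the basal score as a covariate 7 lectin and scavenger receptors and 1 Toll-like receptor rose, and with the muscle score 10 and 1 did.

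Of 20 chemokine receptors 7 rose and none fell (median 1.92). Ccr1 had 24.2, 55.9, 63.1, 39.3 and 19.2 CPM in deleted tumours, 3.52 (lowest), 7.48 (median) and 15.5 (highest) CPM in wildtype 1 to 5 and 84.5 CPM in wildtype 6 (log2 fold change 2.26, SE 0.43, edgeR adjusted p = 0.00395), and Cxcr4, the receptor of Cxcl12, had a log2 fold change of 1.84 (SE 0.39, edgeR adjusted p = 0.00648). Of 34 interleukin receptors 5 rose and 1 fell, and of 25 members of the TNF receptor superfamily 5 rose and 1 fell. Il1rl1, the receptor of interleukin-33, had 60.2, 141, 805, 124 and 19.2 CPM in deleted tumours, 0 (lowest), 9.74 (median) and 10.4 (highest) CPM in wildtype 1 to 5 and 632 CPM in wildtype 6. Deleted 3 and wildtype 6 stood far above the rest (log2 fold change 5.16, SE 1.22, edgeR adjusted p = 0.0114). Tnfrsf1b, TNF receptor 2, had a log2 fold change of 2.63 (SE 0.48, edgeR adjusted p = 0.00329). Tnfrsf4, the T cell costimulator OX40, fell, with 3.91, 1.66, 2.15, 2.4 and 3.85 CPM in deleted tumours, 6.39 (lowest), 8.66 (median) and 27.1 (highest) CPM in wildtype 1 to 5 and 4.48 CPM in wildtype 6. For Tnfrsf4 the log2 fold change was -2.04 (SE 0.51, edgeR adjusted p = 0.0142), passing in 9 of the 10 further fits.

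Of 36 receptor tyrosine kinases 10 rose and 1 fell. Csf1r, the receptor of Csf1 and a marker of macrophages, had 61.5, 183, 278, 269 and 68.9 CPM in deleted tumours, 9.49 (lowest), 26.5 (median) and 55.2 (highest) CPM in wildtype 1 to 5 and 520 CPM in wildtype 6. Csf1r thus had a log2 fold change of 2.65 (SE 0.47, edgeR adjusted p = 0.00269). Pdgfra, a receptor of fibroblasts, had 67.7, 186, 358, 271 and 66.4 CPM in deleted tumours, 2.94 (lowest), 9.26 (median) and 67.1 (highest) CPM in wildtype 1 to 5 and 292 CPM in wildtype 6. For Pdgfra the log2 fold change was 3.27 (SE 0.71, edgeR adjusted p = 0.00774). Wildtype 5, whose fibroblast sum was also high, lay at the lower edge of the deleted range of Pdgfra. Fgfr3, a receptor of epithelial cells, was the 1 that fell, with 64, 50.6, 7.26, 13.3 and 44.7 CPM in deleted tumours, 70.8 (lowest), 193 (median) and 246 (highest) CPM in wildtype 1 to 5 and 4.97 CPM in wildtype 6, the lowest of all (log2 fold change -2.21, SE 0.55, edgeR adjusted p = 0.0142). None of 18 Eph receptors and ephrins was called, with a median of -0.44. With the basal score as a covariate 2 receptor tyrosine kinases rose.

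Of 14 TGF-beta and bone morphogenetic protein receptors 6 rose and none fell, among them Tgfbr2 (1.81, SE 0.39, edgeR adjusted p = 0.00747) and the endothelial co-receptor Eng (1.54, SE 0.36, edgeR adjusted p = 0.0107). Of 18 plexins, neuropilins, Robo and Unc5 receptors 5 rose and 1 fell. Nrp1, a co-receptor of semaphorins and VEGF, had 36.5, 96.8, 111, 88.7 and 50.8 CPM in deleted tumours, 5.54 (lowest), 8.71 (median) and 27.4 (highest) CPM in wildtype 1 to 5 and 74.6 CPM in wildtype 6 (log2 fold change 2.61, SE 0.41, edgeR adjusted p = 0.00159), and Plxna4 had a log2 fold change of 2.90 (SE 0.58, edgeR adjusted p = 0.00491). Of 25 integrins 9 rose and 1 fell. Itgb2, the beta chain of leukocyte integrins, had 101, 154, 94.4, 108 and 51.8 CPM in deleted tumours, 4.84 (lowest), 8.65 (median) and 18.8 (highest) CPM in wildtype 1 to 5 and 110 CPM in wildtype 6, well apart in the 10 libraries (log2 fold change 3.33, SE 0.46, edgeR adjusted p = 0.00061). The endothelial markers, 7 of 14 of which rose, moved with Eng and Nrp1, and their part was not tested.

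Of 42 receptors of lipid mediators and purines 11 rose and 1 fell, among them the prostaglandin receptor Ptgfr (4.23, SE 0.81, edgeR adjusted p = 0.00399) and the nucleotide receptor P2ry6 (2.60, SE 0.44, edgeR adjusted p = 0.00185), and of 23 enzymes of lipid mediators 5 rose, among them Pla2g7 (2.48, SE 0.40, edgeR adjusted p = 0.00159), which breaks down platelet-activating factor. P2ry6 in wildtype 6, at 90.3 CPM, lay above every deleted library, the highest of which had 39.5 CPM. Of 37 nuclear receptors 8 rose, such as Nr4a2 (3.27, SE 0.66, edgeR adjusted p = 0.00518), and 1 fell, the germ cell factor Nr6a1 (-1.44, SE 0.31, edgeR adjusted p = 0.00785). Of 31 cadherins and protocadherins 7 rose, among them N-cadherin, Cdh2 (4.45, SE 0.95, edgeR adjusted p = 0.00747). Of 39 ABC transporters 8 rose and 2 fell, with Abcb9, a lysosomal peptide carrier, lower (-1.76, SE 0.29, edgeR adjusted p = 0.0018), and of 269 solute carriers 28 rose and 14 fell, close to the share of all genes. Slc11a1, which pumps iron and manganese out of phagosomes, had 38.7, 86.7, 44.6, 53.1 and 34.2 CPM in deleted tumours, 1.78 (lowest), 3.82 (median) and 8.24 (highest) CPM in wildtype 1 to 5 and 37.4 CPM in wildtype 6. Slc11a1 thus had a log2 fold change of 3.60 (SE 0.42, edgeR adjusted p = 0.000197).

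The largest fold changes without Keap1-wildtype 6 belonged to genes at or near 0 in the other wildtype libraries. Glp1r, the receptor of glucagon-like peptide 1, had 0.124, 0.536, 125, 3.63 and 0.207 CPM in deleted tumours, 0 counts in wildtype 1 to 5 and 15.9 CPM in wildtype 6, and deleted 3 made up nearly all of its mean. Nefm, a neurofilament protein, had 2.3, 10.4, 32.4, 4.2 and 4.66 CPM in deleted tumours, 0 counts in wildtype 1 to 5 and 5.91 CPM in wildtype 6, at least 592-fold higher than the floor over those 5. Prl2c2, proliferin, a secreted prolactin relative with near-identical copies, had 9.65, 36.5, 277, 5.51 and 143 CPM in deleted tumours, 0 (lowest), 0 (median) and 0.926 (highest) CPM in wildtype 1 to 5 and 3.76 CPM in wildtype 6. It was the 1 of these 3 in which every deleted library lay above all 6 wildtype ones, with a log2 fold change of 8.93 (SE 1.58, edgeR adjusted p = 0.00246) without and 6.86 (SE 1.48, edgeR adjusted p = 0.0503) with wildtype 6. Chrng, the embryonic subunit of the muscle acetylcholine receptor, had 1.58, 5.84, 1.5, 2.88 and 2.48 CPM in deleted tumours and 0 (lowest), 0 (median) and 0.0335 (highest) CPM in wildtype 1 to 5 (log2 fold change 8.17, SE 1.39, edgeR adjusted p = 0.00195). The skeletal muscle sums given above did not follow Chrng library by library. The sum was 680 CPM in wildtype 2, where Chrng was at 0, and 201 CPM in deleted 3, where Chrng had 1.5 CPM. The part of muscle in this gene was not tested beyond the muscle score as a covariate.

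Genes of the translation machinery and of mitochondrial RNA were lower. Of 84 cytosolic ribosomal proteins none rose and 36 fell (median -0.78, 7 held in all 10 further fits), and 19 fell with library totals as the only scaling. Rpl21 had 209, 145, 76.4, 114 and 201 CPM in deleted tumours, 292 (lowest), 518 (median) and 838 (highest) CPM in wildtype 1 to 5 and 143 CPM in wildtype 6 (log2 fold change -1.81, SE 0.37, edgeR adjusted p = 0.00563), and Rps27 had a log2 fold change of -1.30 (SE 0.28, edgeR adjusted p = 0.00691). Of 13 mitochondrial transfer and ribosomal RNAs 9 fell (median -2.53), and of 17 snoRNA host genes 11 fell and 1 rose (median -1.36). The small ribosomal RNA mt-Rnr1 had 368, 348, 200, 211 and 359 CPM in deleted tumours, 367 (lowest), 941 (median) and 2545 (highest) CPM in wildtype 1 to 5 and 151 CPM in wildtype 6 (log2 fold change -2.00, SE 0.43, edgeR adjusted p = 0.00747). Snhg8 (-1.81, SE 0.31, edgeR adjusted p = 0.00194) and Gas5 (-1.76, SE 0.33, edgeR adjusted p = 0.0037), both hosts of small nucleolar RNAs, fell.

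Gene length and the mitochondrial share of the libraries moved with these genes. Mitochondrial genes took 1.56% to 2.60% of counts in deleted and 1.46% to 10.7% in wildtype tumours, with 1.46% in wildtype 6 and 10.7% in wildtype 2. When all genes were split by length into 4 bins, the shortest, with a median length of 1214 bases, had a median log2 fold change of -0.27 without wildtype 6, while the other 3 bins had medians from -0.02 to 0.05. Ribosomal proteins have many processed copies in the genome that may share reads, and their counts were 3 of 84 with only the untreated libraries in the fit, 7 with the basal score and 1 with the muscle score as a covariate. The part of length and of mitochondrial content in the fall of these genes was not tested.

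Of 22 glycolysis and hypoxia genes 6 fell and none rose (median -0.69). Car9, a carbonic anhydrase induced by hypoxia, had 5.77, 3.14, 1.29, 1.89 and 2.25 CPM in deleted tumours, 11 (lowest), 13.3 (median) and 39.4 (highest) CPM in wildtype 1 to 5 and 7.07 CPM in wildtype 6. The deleted libraries lay under all wildtype ones (log2 fold change -2.65, SE 0.63, edgeR adjusted p = 0.0113 without and -2.50, SE 0.62, edgeR adjusted p = 0.0739 with wildtype 6, the second not passing). Ndrg1, another hypoxia gene, fell by 1.72 on the log2 scale (SE 0.48, edgeR adjusted p = 0.0242). It passed in only 5 of the 10 further fits, and its ranges overlapped, with up to 173 CPM in deleted tumours and from 159 CPM in wildtype 1 to 5. Mki67, a marker of cycling cells, had 87.9, 81.8, 99, 52.7 and 133 CPM in deleted tumours, 153 (lowest), 176 (median) and 251 (highest) CPM in wildtype 1 to 5 and 82.2 CPM in wildtype 6, which lay inside the deleted range (log2 fold change -1.04, SE 0.24, edgeR adjusted p = 0.00954). With the basal or the muscle score as a covariate 1 of the 22 glycolysis and hypoxia genes fell.

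Fabp4, the fatty acid binding protein of fat cells, had 63.3, 114, 36.5, 41.4 and 108 CPM in deleted tumours, 3653, 33.9, 4260, 3466 and 2184 CPM in wildtype 1 to 5 and 10.3 CPM in wildtype 6. Wildtype 1, 3, 4 and 5 were thus far above all deleted ones, and wildtype 2 and 6 lay under the deleted range (log2 fold change -5.23, SE 1.16, edgeR adjusted p = 0.0087). The adipocyte sum over 10 markers, 58.3 to 191 CPM in deleted and 25.1 to 4276 CPM in wildtype tumours, was mostly this gene. The other markers of the list did not follow it: the 8 tested had a median log2 fold change of 1.94 without wildtype 6 and 2.13 with it, and Cfd, described above, was the 1 that rose. Cntnap1, a partner of contactin at nodes of Ranvier, also fell (-2.09, SE 0.44, edgeR adjusted p = 0.00642). Several families of epithelial and immune biology gave no call in either fit: 49 keratins, 12 claudins, 25 type I interferon response genes, 16 basal and 20 differentiating keratinocyte markers and 14 T cell markers. Their medians without wildtype 6 were 0.35, 0.70, -0.21, -1.01, -1.04 and 0.73, against -0.04 over all genes.

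The interaction asked whether the Keap1 effect in the 11 BAP tumours differed from that in the 11 tumours described here, and 1333 genes passed it, or 6.94% (475, or 2.47%, positive and 858, or 4.47%, negative). With library totals as the only scaling the majority turned, to 1102 positive and 670 negative. Without Keap1-wildtype 6, 1178 genes passed, or 6.21%, with 310 positive and 868 negative. It is the BAP effect minus the untreated one, both on the log2 scale. Of the 56 genes called in untreated tumours with all libraries, 31 were also called in the same direction in BAP tumours and none in the opposite one, where 40.3% of all genes were called (20.3% higher and 20% lower). The interaction passed for 9 of the 56 with all libraries and for 10 of them without Keap1-wildtype 6. The untreated effect by which the 56 were chosen also enters their interactions, which by itself shifts these against the untreated direction. These counts are therefore not independent of the choice. Mmp12 had a log2 fold change of 3.49 in untreated and -0.91 in BAP tumours, an interaction of -4.40 (SE 0.89, edgeR adjusted p = 0.0292). Bmp6 had 2.90 in untreated and 0.54 in BAP tumours (interaction -2.36, SE 0.67, edgeR adjusted p = 0.0416), and without Keap1-wildtype 6 its interaction of -2.26 no longer passed (edgeR adjusted p = 0.0541). Gss had 1.60 in untreated and -0.10 in BAP tumours (interaction -1.70, SE 0.48, edgeR adjusted p = 0.0408), and Tmem132b had 6.88 in untreated and 0.10 in BAP tumours (interaction -6.78, SE 1.85, edgeR adjusted p = 0.0366). The 5 genes that fell and passed the interaction were Cenpa, Thyn1, Miip, Mnd1 and mt-Tc, with log2 fold changes between 0.03 and 0.23 in BAP tumours and interactions of 1.03, 1.07, 1.62, 1.66 and 3.15. Blvrb had log2 fold changes of 2.65 in untreated and 2.72 in BAP tumours, an interaction of 0.07 (SE 0.55, edgeR adjusted p = 0.949), Slc1a4 had 2.08 in untreated and 2.01 in BAP tumours, an interaction of -0.07 (SE 0.42, edgeR adjusted p = 0.937), and neither passed. With the basal score as a covariate 0 genes passed the interaction in edgeR, with 1313 at an unadjusted p under 0.05 (DESeq2 without that covariate called 3008). Without the untreated Keap1-deleted 1, 2 or 5 it passed for 1 gene each, and without the BAP-treated Keap1-deleted 4 for 2 genes. The BAP tumours differ in their markers too: the basal keratinocyte sum was 331 to 1979 CPM in Keap1-deleted and 29497 to 67342 CPM in Keap1-wildtype BAP tumours, and its part in the interaction was not tested beyond that covariate.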

How the data were processed

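RNA of frozen, pulverised tumours was extracted with a column kit and sequenced as Illumina paired ends, per the labels' protocols. The authors deposited RSEM gene results, and the values used are their expected counts for 56748 gene IDs per library, which were whole in all 22 files within 1e-09. Aligner and genome build: not given in the sources used here. The other deposited columns, such as effective length, were not used in tests, and length served only to bin genes by length. Symbols were taken from GENCODE M21 (GRCm38), which named 52125 IDs holding 99.41% of counts.

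The 22 libraries were grouped by labelled genotype and treatment. Genes were filtered by filterByExpr (minimum count 10), scaled by the trimmed mean of M values and fitted with edgeR's robust quasi-likelihood test (edgeR 4.0.16, limma 3.58.1, DESeq2 1.42.0, R 4.3.3), 1 term per group, with Benjamini-Hochberg adjustment over all genes and a threshold of 0.05. All libraries were fitted first, then those without Keap1-wildtype 6. CPM were computed on the scaled library size. A gene at 0 in a group was given a floor of 3 counts over the group, which covers counting error only. Named genes came from these: Keap1, Nfe2l2, Trp53 and Pik3ca; the 12 per direction with the largest change with all libraries; those called in all 11 fits leaving out a library; members of a list called with all libraries, and up to 4 per list by p without Keap1-wildtype 6; and the 12 per direction with the largest change there that held in 10 further fits. Not every one is reported here. The members and the 77 lists were chosen with earlier results of these data known. Replicates were not duplicates: among 231 pairs of libraries, a chi-square over 12352 genes was at least 96.5 times its degrees of freedom.

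In simulated counts with all libraries (18661 genes) the test recovered 15.2%, 68.7% and 70.1% of genes changed by 1, 2 and 3 on the log2 scale, with 7 false calls. Without Keap1-wildtype 6 (18482 genes) it recovered 16.7%, 61.2% and 85.1%, with 2 false calls. Apart from the set changes, each simulated gene had the same mean CPM in all libraries, with independent spread. No library stood apart and no cell types shifted together, so these rates are not the error rates of the tumour comparison. Other scalings, filters, tools, covariates and left-out libraries were tried. Genes with near-identical copies, overlapping or antisense genes such as Zfas1, and tRNAs shorter than the reads are uncertain, since no source states whether counting used strand.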

Additional observations from a re-analysis of the deposited data

Results flagged for a closer look

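For genes named above, the gap between an extreme library and its neighbour was divided by the range of its group on log2(CPM + 1). Of 241 groups checked, 22 had a library apart by Dixon's 95% critical value. Chance gives about 1 in 20 for genes chosen without regard to their values. Here 72 genes were named because they were called only without Keap1-wildtype 6, so flags on that library follow in part from the choice. Their number cannot be set against chance. Among Keap1-deleted libraries the ratio was 0.801 for Trp53 in library 5, 0.767 for Bmp6 in library 3 and 0.727 for Tslp in library 1. Among Keap1-wildtype libraries it was 1 for Tmem132b in library 5 and 0.645 for Tnfrsf4 in library 4.

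Keap1-wildtype 6 held the other 17. Among secreted and matrix genes the ratio was 0.819 for Pf4, 0.65 for Csf1, 0.675 for Chrdl1, 0.908 for Notum, 0.662 for Bgn, 0.698 for Igkc, 0.954 for Ighg1 and 0.726 for Pla2g7. Among receptors and surface proteins it was 0.71 for Cd300lb, 0.668 for Fgfr3, 0.657 for Msr1, 0.702 for Scara5, 1 for Glp1r, 0.948 for Chrng, 0.736 for Cdh2 and 0.675 for Trem2. For Nefm it was 1.

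The Keap1 effect differed between BAP and untreated tumours for 19 named genes by edgeR's interaction term, given here as the BAP minus the untreated log2 fold change. Most named genes were chosen by their untreated values, which also enter this term. It was negative for Bmp6 (-2.36), Tmem132b (-6.78), Mmp12 (-4.40) and Gss (-1.70). It was positive for mt-Tc (3.15), Mnd1 (1.66), Miip (1.62), Thyn1 (1.07) and Cenpa (1.03), which fell in untreated tumours. It was also positive for Ccl9 (5.49), Csf1 (3.39), C1qb (4.54), Ccr1 (3.07), Csf1r (3.86), Pdgfra (4.46), Msr1 (4.94), Fcgr3 (3.48), Ptgfr (5.05) and P2ry6 (3.94), which were called in untreated tumours without Keap1-wildtype 6. That library lowered the untreated log2 fold changes of these 10: that of Ccl9 was 0.09 with it and 2.90 without it, and that of C1qb was 0.02 with it and 1.92 without it. In a fit without it, added after seeing the data, the interactions of these 10 were 1.75 to 3.12, and 3 passed: C1qb (2.64), Csf1 (2.12) and Msr1 (2.59). Of all 19 genes 11 passed there, and the interactions of the other 9 were -6.60 to 3.38.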

How the results depend on the processing

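With all libraries 56 genes were called by edgeR, 944 by DESeq2, 1888 by limma-voom, 36 with no filter, 28 with the title suffix R (of a meaning not given) as a covariate, 136 with the basal keratinocyte score and 11 with the muscle score. With only the 2 groups in the fit 0 were called (2379 at an unadjusted p under 0.05). Leaving out each untreated library in turn gave 16 to 2723 calls, the highest without Keap1-wildtype 6. Added after seeing the data, only libraries without the suffix gave 0 (1817 at an unadjusted p under 0.05) and Ddx3y as a covariate gave 36. Among untreated libraries the suffix was on Keap1-wildtype 1, 2, 3 and 5 and on Keap1-deleted 5 alone. Its effect and that of Keap1 therefore cannot be fully told apart. The fit of libraries without the suffix kept only Keap1-wildtype 4 and 6 as untreated wildtype libraries. Without Keap1-wildtype 6 the 2731 calls became 4168 by DESeq2, 1811 with no filter, 661 with only the 2 groups, 1445 with the suffix, 944 with the basal and 664 with the muscle score, and 1273 to 3722 with a further library left out. The 1333 interaction calls became 3008 by DESeq2, 111 with no filter, 3021 with the suffix and 1 to 2277 with a library left out, and, added later, 0 with the basal and 401 with the muscle score. Other scalings kept these totals within 1.5 times, but library totals moved the split: 59 higher and 8 lower with all libraries (41 and 15 by the trimmed mean of M values), 1880 and 588 without Keap1-wildtype 6 (1641 and 1090), and 1102 positive and 670 negative interactions (475 and 858). All 72 genes described without Keap1-wildtype 6 lost the call when it was kept, which follows from how they were chosen. Nfe2l2 turned to 0 with only libraries without the suffix. Pik3ca, never called, turned to 0.06 with library totals, 0.08 with the suffix, 0.03 with the basal score, 0.27 with only libraries without the suffix, and ran from -0.11 to 0.02 with a library left out, above 0 without Keap1-wildtype 1 or 2. The cause was not tested. No paired analysis was possible because replicate numbers follow the order of deposition and pair no samples. Depth limits genes at a few counts, such as Marco and Inmt.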
